A study of Mus musculus with 11 samples.

Results

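The purinergic receptors for ATP and adenosine were described across bulk RNA-Seq libraries of mouse dorsal root ganglia (DRG). The group was named by gene symbol and held 10 of the 36670 genes of the deposited table: the ATP-gated channels P2rx2, P2rx3, P2rx4, P2rx5, P2rx6 and P2rx7, the G protein-coupled nucleotide receptors P2ry1, P2ry2 and P2ry14, and the adenosine receptor Adora1. The 11 libraries came from 6 WT mice, of which 3 were controls and 3 had received paclitaxel (PTX) 4 weeks before, and from 5 mice without Gpr37l1 (KO), of which 3 were controls and 2 had received PTX 4 weeks before. PTX is a chemotherapy drug that causes neuropathic pain, and Gpr37l1 is an orphan receptor of satellite glial cells, the glia that wrap sensory neurons. The KO allele was a germline one, so every cell of the animal carried it. The KO strain was obtained under a name that lists another mouse line beside C57BL/6. KO mice and their littermates were kept on a C57BL/6 background. The study used adult mice, and the PTX dose of these mice was not given in the sources used here. The sample descriptions mark the controls with V and the PTX mice with P. The labels name no treatment of the control mice beyond that V. In every group the mouse numbered 3 was female and the others were male, so sex and that number cannot be told apart. Each group had 2 or 3 mice, and p-values measure the spread between these mice.

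ATP leaves cells through channels, vesicles or damaged membranes and acts on P2X and P2Y receptors. P2X receptors are trimeric channels that let cations in when ATP binds, and P2Y receptors signal through G proteins in answer to ATP, ADP, uridine nucleotides or sugar nucleotides. Ectoenzymes break ATP down to adenosine, which acts on its own receptors, and in DRG the P2X3 channel is known as a receptor of small nociceptors while the A1 adenosine receptor dampens their signalling.

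Levels are given in FPKM (fragments per kilobase of transcript, scaled for library size). Genes can be compared in FPKM as far as the gene lengths used are right. The labels were checked first. Gpr37l1 was 35.7, 34.9 and 27.6 FPKM in the WT controls and 14.6, 31.7 and 25.0 FPKM in the WT PTX mice. In KO mice it was 0.21, 0.25 and 0.29 FPKM without PTX and 0.60 and 1.15 FPKM after PTX, so the genotypes did not overlap. All 7 markers of sensory neurons were above 0 in all libraries. Skeletal muscle markers, carried with the ganglia, summed to between 3.07 and 521 FPKM per library, and spinal cord markers summed to 5.85 and 13.8 FPKM in KO mice after PTX and to no more than 5.23 FPKM in any other library. Total estimated counts were 52735648 to 80348732 per library. In bulk tissue, fewer cells of a type and less RNA per cell cannot be told apart.

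P2rx3, the ATP channel of nociceptors, stood far above all other receptors of the group. Its level was 60.8, 74.8 and 72.6 FPKM in the WT controls, a mean of 69.4 ± 7.52 FPKM (SD, n = 3), and 96.2% of the 15087 tested genes had a lower mean there. Adora1, the inhibitory A1 adenosine receptor, came next with 20.7, 18.1 and 20.1 FPKM (mean 19.6 ± 1.33, SD, n = 3). P2ry1, a receptor for ADP that acts through Gq, followed with 11.03, 9.37 and 16.5 FPKM (mean 12.3 ± 3.70, SD, n = 3). The first and second of these WT controls, both male, were the lowest P2ry1 values of the 11 libraries.

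A group of 5 receptors lay close together below these. Mean levels in the WT controls (SD, n = 3) were 5.26 ± 0.680 FPKM for P2rx6, a subunit known to join other P2X subunits, and 4.82 ± 0.170 FPKM for P2rx5, another channel subunit. P2rx4, a calcium-permeable channel best known from microglia and macrophages, had a mean of 4.71 ± 0.558 FPKM. P2ry2, the receptor for ATP and UTP, had 4.48 ± 0.380 FPKM, and P2rx7, the channel that opens at high ATP and drives interleukin 1β release in macrophages, had 3.36 ± 0.637 FPKM. P2rx2, which forms mixed channels with P2X3, was lower at 2.05 ± 0.252 FPKM. P2ry14, the receptor for UDP-sugars, was lowest at 0.27 ± 0.0493 FPKM and never passed 0.32 FPKM in any library.

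The order was set in the WT controls and tested in the other 8 libraries with the ratio of each neighbouring pair inside a library. The upper gene of the pair was higher in 8 of 8 libraries for 7 of the 9 pairs, each at p = 0.00781 (exact two-sided sign-flip permutation test), the smallest p that 8 libraries allow, or 0.0100 after Benjamini-Hochberg adjustment over the 9 pairs. P2rx3 exceeded Adora1 by 1.77 ± 0.08 on the log2 scale (SD, n = 8; log2(FPKM + 0.1) here and in the other ratios), and Adora1 exceeded P2ry1 by 0.39 ± 0.19. P2ry1 exceeded P2rx6 by 1.26 ± 0.27, and P2rx6 exceeded P2rx5 by 0.53 ± 0.23, although in the WT controls that were used to set the order the P2rx6 lead was only 0.12 and held in 2 of 3 mice. Further down, P2ry2 exceeded P2rx7 by 0.21 ± 0.12, P2rx7 exceeded P2rx2 by 0.88 ± 0.29, and P2rx2 exceeded P2ry14 by 2.54 ± 0.30. These p-values measure the spread between libraries and not an error in the gene lengths used for FPKM. Annotated exon bases ran from 2395 for P2rx5 to 11059 for P2ry14 in GENCODE M21. Gaps between genes, large or small, may therefore turn on the length used. In WT control 1 the estimated counts, which are not scaled for length, were 345 for P2rx2 and 194 for P2ry14. In that library they were 1098 for P2ry2 and 1198 for P2rx7, the reverse of the FPKM order.

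The pairs that did not separate were in the middle. P2rx5 was above P2rx4 in 4 of 8 libraries and level with it at 3.88 FPKM in the female WT PTX mouse. The mean log2 ratio was 0.08 ± 0.21 (SD, n = 8, adjusted p = 0.369, exact sign-flip permutation test). P2rx4 was above P2ry2 in 2 of 8 libraries, with a mean log2 ratio of -0.04 ± 0.14 (SD, n = 8; adjusted p = 0.492, exact sign-flip permutation test). P2rx3, Adora1, P2ry1, P2rx2 and P2ry14 held the same place in all 11 libraries, whereas P2rx5 ranged from place 4 to place 8.

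**Figure D1:**
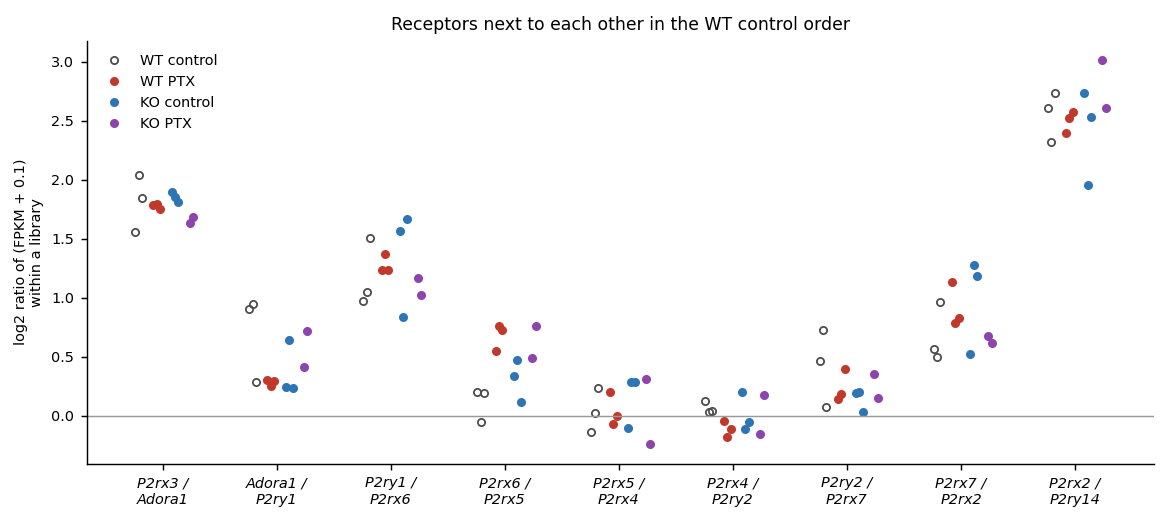
Log2 ratio of (FPKM + 0.1) within each library for the 9 pairs of receptors next to each other in the WT control order. Each point is 1 library, open for the WT controls that set the order and filled for the 8 libraries of the test; points of 7 pairs lie wholly above 0 in those 8 libraries, while P2rx5 / P2rx4 and P2rx4 / P2ry2 lie on both sides of 0.

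P2rx3 made up most of the P2X signal in every library. Of the summed FPKM of the 7 P2X genes, P2rx1 included, P2rx3 made up between 73.8% and 80.4% in all 11 libraries, with a median of 77.3%. The group medians were 77.7% in WT controls, 76.9% in WT PTX mice, 77.9% in KO controls and 76.3% in KO PTX mice, and the range of the WT controls, 73.8% to 80.4%, held all other libraries. P2rx3 was 26.1 to 46.7 times as high as P2rx2, its partner in mixed channels, with ranges that overlapped between WT controls (26.1 to 40.4), WT PTX mice (31.2 to 41.8), KO controls (30.0 to 46.7) and KO PTX mice (30.5 to 30.9). P2rx4 and P2rx7, whose genes lie 23.2 kb apart on chromosome 5, had ratios from 0.99 to 1.72.

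Levels varied little over all libraries for some of the receptors. The coefficient of variation over the 11 libraries was 5.89% for Adora1, 5.95% for P2ry2 and 6.71% for P2rx3, against a median of 11.3% over tested genes. P2rx4 (11.02%), P2rx5 (10.8%), P2rx7 (11.3%) and P2rx6 (12.9%) lay near that median, and P2rx2 (16.3%), P2ry1 (17.6%) and P2ry14 (20.1%) lay above it. The estimated counts behind these values ran from 9719 to 16963 per library for P2rx3, from 273 to 513 for P2rx2 and from 109 to 303 for P2ry14, so the last values were the least precise.

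**Figure D2:**
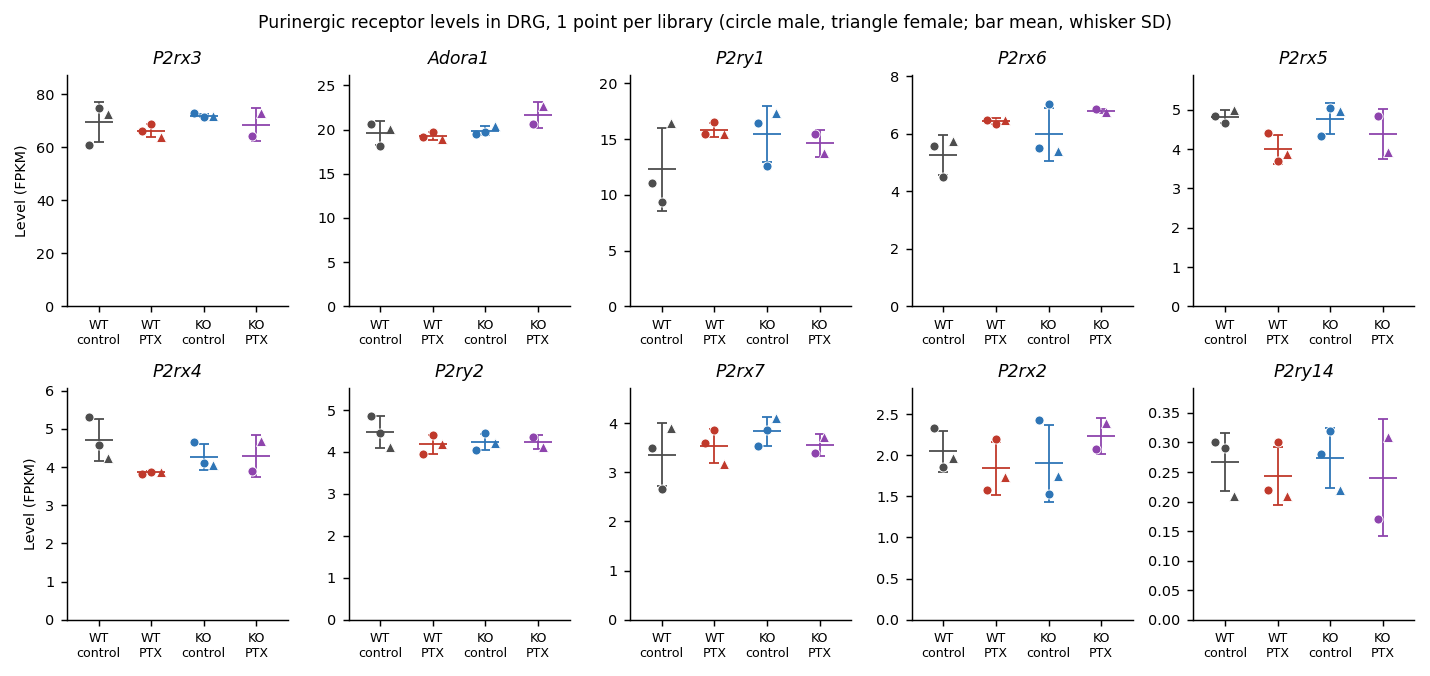
Level in FPKM of the 10 receptors in each library, in the order of the WT controls, with 1 panel and 1 linear axis from 0 per gene. Circles are male mice and triangles female mice, the horizontal bar is the group mean and the whisker the SD. The panel of P2ry1 shows the WT controls at 11.03 and 9.37 FPKM below all other mice, and that of P2rx4 shows the WT PTX mice close together at 3.83 to 3.88 FPKM.

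Whether PTX changed the receptors in WT mice was asked next, in an edgeR quasi-likelihood fit of all 11 libraries with sex as a covariate. Of the receptors, 9 had a mean FPKM of at least 0.5 and were tested, and P2ry14 was not. None of the 9 passed an adjusted p of 0.05 in WT mice, where 0.00663% of all tested genes did. At an unadjusted p under 0.05 there were 2 of 9, P2rx4 and P2ry1, against 13.5% of tested genes. DESeq2 called 0 of 9 at its adjusted p against 2.05% of genes, and had 4 of 9 at an unadjusted p under 0.05, the same pair with P2rx5 and P2rx6, against 15.1% of genes in that fit. The median log2 fold change of the 9 receptors was -0.07.

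Among the channels, P2rx4 was 5.32, 4.57 and 4.23 FPKM in WT controls and 3.83, 3.88 and 3.88 FPKM in WT PTX mice. The groups did not overlap, and the fitted fold change was 0.82 with a 95% interval of 0.69 to 0.97 (log2 -0.29, SE 0.11, edgeR adjusted p = 0.339). Macrophage markers were among those that moved the same way. Their sum was 21.6 to 27.8 FPKM in the WT controls and 17.0 to 19.4 FPKM in the WT PTX mice. Of the 7, 6 were lower at an unadjusted edgeR p under 0.05. So were 3 of 5 markers of peptidergic nociceptors, a class of small sensory neurons. Of 7 sensory neuron markers, 3 were lower and 1 was higher at that threshold. No marker of these lists was called after adjustment, and their part in the P2rx4 values was not tested. Without the first WT control the log2 fold change of P2rx4 was -0.18.

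P2rx5 was 4.83, 4.65 and 4.99 FPKM in WT controls and 4.41, 3.69 and 3.88 FPKM in WT PTX mice, again with no overlap (fold 0.83, 95% interval 0.68 to 1.00; edgeR adjusted p = 0.372). P2rx6 went the other way, from 5.57, 4.48 and 5.73 FPKM to 6.49, 6.33 and 6.49 FPKM, also with no overlap (fold 1.22, 95% interval 1.00 to 1.50; edgeR adjusted p = 0.376). Groups without overlap were thus seen in 3 of the 9 receptors in WT mice, against 14.2% of tested genes. Without the second WT control the log2 fold change of P2rx6 was 0.17 against 0.29 with it. Skeletal muscle markers summed to 459, 13.97 and 409 FPKM in the WT controls and 43.95, 154 and 3.07 FPKM in the WT PTX mice. These sums overlapped, with 0 of 7 markers at an unadjusted p under 0.05. P2rx6 was 4.48 FPKM in the WT control at 13.97 FPKM and 6.49 FPKM in the WT PTX mouse at 3.07 FPKM. Those are single mice of different groups, and the part of muscle in the P2rx5 and P2rx6 values was not tested. P2rx6 shares 554 exon bases on the opposite strand with Slc7a4, which ranged from 3.09 to 4.16 FPKM, and the strand setting of the counting was not given in the sources used here.

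P2rx3, the channel most abundant here, was 66.0, 68.7 and 63.9 FPKM in WT PTX mice, inside the range of the WT controls. Its fold change was 0.95 with a 95% interval of 0.84 to 1.08. P2rx2 was 2.33, 1.85 and 1.96 FPKM in WT controls and 1.58, 2.20 and 1.74 FPKM in WT PTX mice (fold 0.90, 95% interval 0.65 to 1.24), and P2rx7 was 3.50, 2.66 and 3.91 FPKM and then 3.59, 3.86 and 3.17 FPKM (fold 1.06, 95% interval 0.86 to 1.30). Both overlapped between the groups, and the interval of P2rx2 was the widest of the 9 on the log2 scale.

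Among the G protein-coupled receptors, P2ry1 was 15.5, 16.6 and 15.4 FPKM in WT PTX mice against 11.03, 9.37 and 16.5 FPKM in the WT controls. The ranges overlapped through the female WT control, and the fold change was 1.31 with a 95% interval of 1.02 to 1.67 (log2 0.39, SE 0.16, edgeR adjusted p = 0.355). Without this female control the log2 fold change was 0.61 (edgeR adjusted p = 0.0847, the lowest for any receptor in the fits made), and without the second WT control it was 0.24. Markers of nonpeptidergic nociceptors, a class of small sensory neurons, ran with P2ry1 in these mice: their sum was 223, 199 and 283 FPKM in the WT controls and 260, 266 and 292 FPKM in the WT PTX mice. Of the 6 markers, 3 were higher after PTX in WT at an unadjusted edgeR p under 0.05, and none after adjustment. Of 5 markers of large-fibre neurons, 2 were also higher at that unadjusted threshold and none after adjustment, with 4 positive log2 fold changes and 1 negative. The large-fibre sums overlapped, at 730 to 765 FPKM in WT controls and 730 to 787 FPKM in WT PTX mice. The part of either list in the P2ry1 values was not tested.

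P2ry2 was 4.87, 4.46 and 4.11 FPKM in WT controls and 3.96, 4.40 and 4.19 FPKM in WT PTX mice (fold 0.93, 95% interval 0.80 to 1.08). Adora1 was 19.1, 19.7 and 18.9 FPKM in WT PTX mice, inside the range of the controls, with a fold change of 0.98 and a 95% interval of 0.88 to 1.09. P2ry14 was 0.30, 0.29 and 0.21 FPKM in WT controls and 0.22, 0.30 and 0.21 FPKM in WT PTX mice, and in the fit without a filter its log2 fold change was -0.14 (SE 0.28). P2ry14 lies inside Med12l on the opposite strand, which was at 1.81 to 2.88 FPKM, with no exon bases shared.

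**Figure D3:**
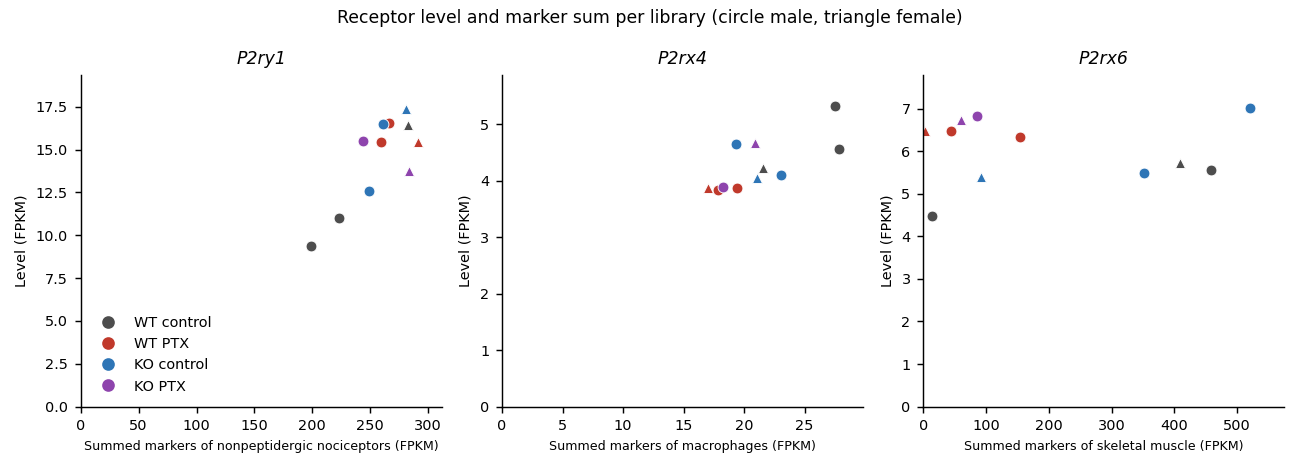
Level of P2ry1, P2rx4 and P2rx6 in each library against the summed FPKM of the markers of nonpeptidergic nociceptors, macrophages and skeletal muscle; all axes are linear and start at 0. Each point is 1 mouse, coloured by group. The WT controls with P2ry1 at 11.03 and 9.37 FPKM are those with marker sums of 223 and 199 FPKM, the lowest of the 11, and the 3 WT PTX mice have macrophage sums of 17.0 to 19.4 FPKM. A KO control and a KO PTX mouse lie in that range too, at 19.35 and 18.23 FPKM, with P2rx4 at 4.66 and 3.89 FPKM.

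In KO mice, PTX moved no receptor past an adjusted p of 0.05 in edgeR, where 0.00663% of tested genes passed. At an unadjusted p under 0.05 there were 0 of 9 receptors against 4.32% of genes, and DESeq2 called 0 of 9 against 0.192%. Adora1 was the 1 receptor of 9 whose groups did not overlap, at 19.5, 19.7 and 20.4 FPKM in KO controls and 20.6 and 22.6 FPKM in KO PTX mice. With 3 against 2 mice, 21.6% of all tested genes did not overlap, and the fold change of Adora1 was 1.08 with a 95% interval of 0.96 to 1.22. P2rx3 was 72.8, 71.5 and 71.7 FPKM in KO controls and 64.2 and 72.9 FPKM in KO PTX mice (fold 0.95, 95% interval 0.82 to 1.09). P2rx4, at 4.66, 4.10 and 4.05 FPKM and then 3.89 and 4.67 FPKM, had a fold change of 1.01 (95% interval 0.83 to 1.23). P2ry1, at 16.5, 12.6 and 17.4 FPKM and then 15.5 and 13.8 FPKM, had a fold change of 0.93 (95% interval 0.71 to 1.23).

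The difference between the PTX responses of the 2 genotypes was tested as an interaction. None of the 9 receptors passed in edgeR (0.00663% of tested genes did), and 0 of 9 had an unadjusted edgeR p under 0.05 (6.30% of genes). DESeq2 called 0 of 9 (0.0795% of genes) and had 1 of 9 at an unadjusted p under 0.05, against 1109 of 15087 genes. The interaction was largest for P2ry1, at -0.49 on the log2 scale (SE 0.24, 95% interval -1.03 to 0.05, edgeR adjusted p = 0.724), followed by P2rx2 at 0.41 (SE 0.32) and P2rx4 at 0.30 (SE 0.17). These values turned on the pair of KO PTX mice: without the male one they were -0.73 for P2ry1, 0.60 for P2rx2 and 0.52 for P2rx4, and without the female one -0.29, 0.25 and 0.11. Without the first WT control, P2rx4 was at 0.19. For P2rx3 it was -0.01 with a 95% interval of -0.28 to 0.27.

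**Figure D4:**
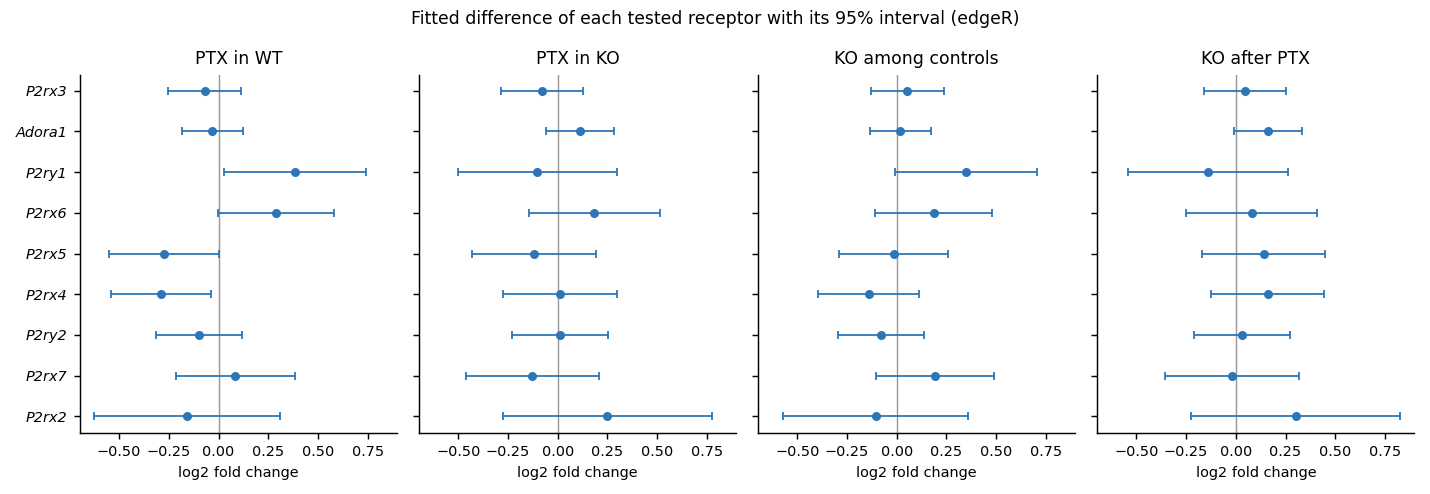
Fitted log2 fold change of the 9 tested receptors (points) with 95% intervals (bars) in 4 comparisons, from the edgeR fit of all 11 libraries. Most intervals cross the line at 0; those of P2rx4 and P2ry1 for PTX in WT mice do not, and no receptor passed an adjusted p of 0.05 in any panel.

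The absence of Gpr37l1 was examined in control mice. None of the 9 receptors passed an adjusted p of 0.05 in edgeR (0.00663% of tested genes), and 0 of 9 had an unadjusted edgeR p under 0.05 (7.54% of genes). DESeq2 called 0 of 9 (0.278% of genes) and had 1 of 9 at an unadjusted p under 0.05, against 1286 of 15087 genes. No receptor had groups without overlap, against 9.28% of genes. P2ry1 had the largest difference, with a fold of 1.27 (95% interval 0.99 to 1.63, edgeR adjusted p = 0.657); it rests on the same WT controls at 11.03 and 9.37 FPKM as the comparison of PTX in WT mice. Its log2 fold change of 0.35 was 0.20 without the second WT control and 0.58 without the female one. P2rx7, at 3.53, 3.85 and 4.11 FPKM in KO controls, had a fold of 1.14 (95% interval 0.93 to 1.41), and P2rx6, at 5.49, 7.03 and 5.39 FPKM, also had a fold of 1.14 (95% interval 0.93 to 1.39). Their log2 fold changes of 0.19 each were 0.05 for P2rx7 and 0.07 for P2rx6 without the second WT control; without the second KO control P2rx6 was at 0.02, without the female KO control it was at 0.29, and without the female WT control P2rx7 was at 0.30. P2rx3 had a fold of 1.04 (95% interval 0.92 to 1.18). Adora1 lies on chromosome 1, 0.925 Mb from Gpr37l1 with 16 protein-coding genes between them, and had a fold of 1.01 with a 95% interval of 0.91 to 1.13.

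After PTX, KO and WT mice were compared in the same way. In edgeR 0 of 9 receptors passed (0.0133% of tested genes), 0 of 9 had an unadjusted p under 0.05 (3.55% of genes), and DESeq2 called 0 of 9 (0.0663% of genes). P2rx4, P2rx6 and Adora1 were higher in both KO PTX mice than in any WT PTX mouse, which made 3 of 9 against 20.2% of genes. P2rx4 was 3.89 and 4.67 FPKM in the KO PTX mice, and its log2 fold change of 0.16 (SE 0.13) became -0.035 without the female KO PTX mouse and 0.37 without the male one. Adora1 had a fold of 1.12 (95% interval 0.99 to 1.26, edgeR adjusted p = 0.993; log2 0.16, and 0.10 without the female KO PTX mouse), and P2rx6, at 6.84 and 6.74 FPKM, had a fold of 1.06 (95% interval 0.84 to 1.33). The spinal cord markers were highest in these 2 KO PTX libraries, and their part was not tested.

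Pooling the genotypes gave 5 PTX and 6 control libraries. In edgeR 0 of 9 receptors passed (0.0133% of tested genes), 1 of 9 had an unadjusted p under 0.05 (9.36% of genes), and DESeq2 called 0 of 9 (0.829% of genes). That receptor was P2rx6, with a fold of 1.18 (95% interval 1.01 to 1.37, edgeR adjusted p = 0.507). Its mean was 6.58 ± 0.207 FPKM (SD, n = 5) after PTX and 5.62 ± 0.821 FPKM (SD, n = 6) in controls, with an exact two-sided permutation p of 0.0303 that takes no account of genotype or sex. Skeletal muscle markers, set beside P2rx6 above, had a median log2 fold change of -2.14 in this pooled comparison. Of these markers, 5 of 7 were lower at an unadjusted edgeR p under 0.05 and 0 after adjustment, and their part in the P2rx6 values was not tested. P2rx5 was at 4.15 ± 0.468 FPKM (SD, n = 5) and 4.80 ± 0.271 FPKM (SD, n = 6), with an exact permutation p of 0.0260. These were the lowest of 20 such tests, of 10 receptors in 2 contrasts, and were not corrected for that number; the smallest p the design allows is 0.00216.

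Pooling the treatments gave 5 KO and 6 WT libraries. In edgeR 0 of 9 receptors passed (0.0133% of tested genes), 0 of 9 had an unadjusted p under 0.05 (3.75% of genes), and DESeq2 called 0 of 9 (0.186% of genes). P2rx3 had a fold of 1.04 (95% interval 0.94 to 1.14), Adora1 1.06 (0.98 to 1.15), P2ry2 0.98 (0.88 to 1.10) and P2rx4 1.01 (0.88 to 1.15). The exact permutation p was lowest for Adora1, at 0.110, with 20.6 ± 1.24 FPKM (SD, n = 5) in KO and 19.4 ± 0.911 FPKM (SD, n = 6) in WT mice.

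Between the sexes, edgeR called 0 of 9 receptors (0.0398% of tested genes), 0 of 9 had an unadjusted p under 0.05 (8.44% of genes), and DESeq2 called 0 of 9 (0.815% of genes). The largest difference was in P2ry1, with a fold of 1.15 in females over males (95% interval 0.95 to 1.39). Its log2 fold change of 0.20 was 0.03 without the female WT control.

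The other genes of the pathway were taken from 5 lists. No gene of any list passed edgeR's adjusted p of 0.05 in any comparison. Among the other purinergic receptors, 3 of 9 were tested, and the highest in WT controls was P2ry12, an ADP receptor of microglia and satellite glia, at 2.55 ± 0.646 FPKM (SD, n = 3). All 3 had positive log2 fold changes for PTX in WT, with a median of 0.23, and for the absence of Gpr37l1 among controls the largest difference was in Adora2b, an adenosine receptor coupled to Gs, at -0.31 (SE 0.20). P2rx1, the channel of platelets and smooth muscle, was at most 0.08 FPKM in any library.

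Of the ATP release genes, 6 of 9 were tested, with a median log2 fold change for PTX in WT of -0.03. The highest was Panx2, a pannexin of neurons, at 16.5 ± 3.06 FPKM (SD, n = 3). The largest differences were in Calhm2, a pore-forming protein, for PTX in WT (log2 -0.26, SE 0.27) and in Gja1, a connexin of glia, for KO among controls (0.14, SE 0.09). Of the genes of nucleotide breakdown, 10 of the 12 found in the table were tested, with a median of 0.05 for PTX in WT. Acpp, which makes adenosine from AMP on nociceptors, was the highest at 49.6 ± 12.6 FPKM (SD, n = 3) and had the largest difference for PTX in WT (log2 0.48, SE 0.10, edgeR adjusted p = 0.203), while Entpd2, an enzyme that cleaves ATP, had the largest among controls (log2 -0.31, SE 0.16).

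Of the adenosine handling genes, 6 of 8 were tested, with a median of -0.07 for PTX in WT. Adk, the kinase that removes adenosine inside cells, was the highest at 26.7 ± 0.719 FPKM (SD, n = 3), and Slc29a2, a nucleoside transporter, had the largest difference both for PTX in WT (log2 -0.54, SE 0.12, edgeR adjusted p = 0.203) and for KO among controls (log2 -0.54, SE 0.12, edgeR adjusted p = 0.657). Of the genes downstream of P2X7 in the inflammasome, 3 of 6 were tested and all had negative log2 fold changes for PTX in WT, with a median of -0.21. The largest was in Casp1, the protease that cuts interleukin 1β (log2 -0.28, SE 0.22), and Il18, the most abundant at 3.36 ± 0.442 FPKM (SD, n = 3), had the largest among controls (log2 -0.27, SE 0.19).

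The 3 tested genes whose log2(FPKM + 0.1) ran most like each receptor over the 11 libraries were listed by Pearson's r, as a description only, since the points share library depth and tissue makeup. P2rx3 ran most like Capza1 (r = 0.94), Cyth3 (0.93) and Lsm14b (0.91). P2rx2 ran most like Eva1b (0.92), Gm13301 (0.87) and Gm17081 (0.87). P2rx4 ran most like Tsc22d4 (0.94), Crip2 (0.93) and Cc2d1a (0.93), and P2rx5 most like Ebf2 (0.93), Gm20691 (0.85) and Gsdme (0.84). For P2rx6 they were Ndufb4c (0.94), Maneal (0.90) and Thoc1 (0.88), and for P2rx7 Fam89a (0.90), D130017N08Rik (0.90) and Gm9333 (0.90). P2ry1 ran most like Vamp1 (0.95), Kank4 (0.95) and Isoc1 (0.95), P2ry2 most like Tufm (0.94), Tmem134 (0.91) and Pdcd2 (0.91), and Adora1 most like Lpcat4 (0.92), Sncb (0.92) and Kcnh2 (0.92). At r above 0.8 there were 269 genes for P2ry1, 70 for P2rx3 and 5 for P2rx5 among 15086 compared.

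In the mm10 coordinates of the table, P2rx3 (ENSMUSG00000027071) spans bases 84998583 to 85037462 of chromosome 2 on the minus strand, and Adora1 (ENSMUSG00000042429) spans 134199223 to 134235431 of chromosome 1 on the minus strand. P2ry1 (ENSMUSG00000027765) lies at 61002795 to 61008982 of chromosome 3 on the plus strand, P2rx7 (ENSMUSG00000029468) at 122643911 to 122684297 and P2rx4 (ENSMUSG00000029470) at 122707544 to 122729738 of chromosome 5, both on the plus strand. Adora1 shares 1162 exon bases with Mybph and P2ry1 shares 992 with Gm37035, each on the opposite strand in GENCODE M21. Mybph ranged from 0.09 to 2.40 FPKM and Gm37035 from 0.05 to 0.35 FPKM.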

How the data were processed

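DRG RNA-Seq of 11 mice was analysed. The authors deposited 1 table of 36670 genes on mm10 with FPKM values, scaled for gene length and library size, and estimated counts, not normalized. The submitters' processing notes name cutadapt, FastQC, HISAT2 and StringTie, without versions; strand settings are not given in the sources used here. In WT control 1 a count of 4 was held by 1369 genes against 573 at 3 and 334 at 5, so a count is not 1 fragment. Groups, numbers and sex came from the labels; the KO PTX titles and descriptions number the mice differently, and the descriptions were used.

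Counts, rounded to whole numbers, were fitted with edgeR 4.0.16 (R 4.3.3; TMM, quasi-likelihood, sex as covariate, 15087 genes kept at a mean of 0.5 FPKM or more, Benjamini-Hochberg adjustment over all of them). Intervals are 95% t intervals of the fit. Alternatives were DESeq2 1.42.0, limma 3.58.1 on log2(FPKM + 1) or log2(FPKM + 0.1), other filters, scaling, covariates and each library left out. The edgeR step was tested on simulated data. Members, gene lists and tests were chosen with earlier results of these data known. All 10 receptors were named; of the other lists, genes past adjusted p 0.05 and otherwise the highest in WT controls and the largest change for PTX in WT and KO among controls; and the 3 genes most alike in pattern. Gene overlaps and exon bases came from GENCODE M21.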

Additional observations from a re-analysis of the deposited data

How the results depend on the processing

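No receptor passed an adjusted p of 0.05 in any of the 8 comparisons or under any of the 20 alternatives that gave them a fit (the comparison of the sexes could not be fitted without the sex covariate and was not made with a replicate block), single libraries left out included (0 in every fit, so the range over left-out libraries was 0 to 0); the lowest adjusted p was 0.0847. DESeq2 called 10 to 309 genes per comparison against 1 to 6 with edgeR, and none of them was a receptor. Of 1413 log2 fold changes refitted, 71 changed sign, 69 of them smaller than their standard error in the first fit. The others were P2rx4 for KO after PTX, which ranged from -0.035 (without the female KO PTX mouse) to 0.37 (without the male one) over left-out libraries, and P2rx5 for KO after PTX, from -0.022 (without the male one) to 0.28 (without the female one); with 1 mouse left in that group, it was assumed to vary like the others. The order of levels was the same for all 10 receptors by median, on the TPM scale and without the first or second WT control, and for 8 of 10 without the third, where P2rx4 and P2rx5 changed places. A pseudocount of 1 and the TPM scale changed no call among the neighbouring pairs, and a pseudocount of 1 changed none among the permutation tests.

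Same-numbered mice of different groups had correlations of their deviations from group means between -0.16 and 0.25. Of these pairs, 7 of 15 were above 0.1, against 4 of 30 pairs with different numbers. With sex also removed, 0 of 15 and 17 of 30 were above 0.1. Sex and number cannot be told apart for the female mice, so these values do not decide whether the numbers paired the mice. With the replicate number as a block, 0 receptors were called and the log2 fold change of P2ry1 for PTX in WT was 0.39 by the descriptions' numbers and 0.40 by the titles'. Counting precision limits P2ry14 most, at 109 to 303 counts.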

Other observations

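Acpp and Slc29a2, which make and move adenosine, were the genes of the 5 pathway lists that DESeq2 called while edgeR did not. Acpp was 44.9, 40.1 and 63.9 FPKM in WT controls, 66.2, 64.5 and 75.4 FPKM in WT PTX mice, 59.7, 57.1 and 62.0 FPKM in KO controls and 62.9 and 71.7 FPKM in KO PTX mice. WT controls and WT PTX mice did not overlap, as for 14.2% of tested genes, with 63.9 and 64.5 FPKM as the nearest values. DESeq2 gave a log2 fold change of 0.48 (adjusted p = 9.7e-04) and called 2.05% of genes in that comparison. The first and second WT controls were the lowest of the 11 libraries, as they were for P2ry1. Those 2 mice also had the lowest sums of nonpeptidergic nociceptor markers, 223 and 199 FPKM. Of these 6 markers, 3 were higher after PTX in WT at edgeR's unadjusted p under 0.05, and so were 2 of 5 large-fibre neuron markers. The part of these markers in the Acpp values was not tested. Over both genotypes DESeq2 gave 0.30 for Acpp (adjusted p = 0.0148) and called 0.829% of genes.

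Slc29a2 was 4.38, 4.97 and 3.64 FPKM in WT controls and between 2.81 and 3.28 FPKM in the other 8 libraries. The share of all tested genes with WT controls apart from all 8 was not counted. DESeq2 gave a log2 fold change of -0.54 for PTX in WT (adjusted p = 0.00950) and of -0.54 for KO among controls (adjusted p = 0.0313). Both comparisons use the same WT controls. Over all tested genes, DESeq2 called 2.05% for PTX in WT and 0.278% for KO among controls. Groups without overlap were seen for 14.2% and 9.28% of genes in these comparisons.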
